A study of Mus musculus with 10 samples.

Results

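The 9 genes described here encode transcription factors that pattern the excitatory projection neurons of the cerebral cortex: *Eomes*, *Neurod2*, *Tbr1*, *Fezf2*, *Bcl11b*, *Sox5*, *Cux1*, *Cux2* and *Bcl11a*. They were selected by symbol, and 9 of 9 were found among the 18444 genes of the table. Whole-brain poly-A RNA was sequenced from male C57BL/6N mice at postnatal day 3 (P3). One group held 5 mice with 1 edited and 1 wild-type *Arid1b* allele (HT), and the other held 5 wild-type mice (WT). The germline edit removes a stretch around exon 5 of *Arid1b*, was made with a Cas9 nickase, and is 1 engineered allele (em1), so that a single line stands for the genotype. HT fathers were bred with WT mothers and a cage held 2 to 8 pups of a mother, but the litter of each pup is not given, and the labels name no treatment. *Arid1b* encodes a subunit of the BAF chromatin remodelling complex, and the comparison asked how the loss of 1 copy alters transcripts of the early postnatal brain.

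Projection neurons arise in the dorsal telencephalon from radial glia, many through intermediate progenitors that express *Eomes* (TBR2). As these cells leave the cycle they express *Neurod2*, a basic helix-loop-helix (bHLH) factor, and then take on layer identities. Among deep layer neurons, *Tbr1* marks corticothalamic cells, *Fezf2* and *Bcl11b* (CTIP2) mark subcerebral cells, and *Sox5* controls the timing and position of deep layer neurons, while *Cux1* and *Cux2* mark the upper layers. Repression between factors such as *Tbr1* and *Fezf2* helps to keep these identities apart, and *Bcl11a* (CTIP1) is expressed in several layers. None of the 9 is confined to cortex. *Bcl11b* is also strong in striatal projection neurons, *Tbr1* and *Eomes* occur in mitral and tufted cells of the olfactory bulb and in the rhombic lip of the cerebellum, and the *Cux1* gene also encodes CASP, a Golgi protein without the DNA-binding domains. In whole-brain RNA, fewer cells of a type and less RNA per cell cannot be told apart.

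Promoter sequences are shown for 3 of the factors, chosen after their levels in a single HT library described below (HT 4) had been seen. In that library *Tbr1* and *Neurod2* were low and *Eomes* was not. Each is the 250 bases upstream of the RefSeq start site (GRCm38.p6), written 5′ to 3′ on the strand of the gene, and capitals mark matches to CANNTG, the E-box read by bHLH factors such as NEUROD2. The *Tbr1* window is chr2:61804203-61804452 (plus strand) and lies inside the longer span that GENCODE gives this gene. The *Neurod2* window is chr11:98329646-98329895 (minus strand), and the *Eomes* window is chr9:118477939-118478188 (plus strand).
Tbr1: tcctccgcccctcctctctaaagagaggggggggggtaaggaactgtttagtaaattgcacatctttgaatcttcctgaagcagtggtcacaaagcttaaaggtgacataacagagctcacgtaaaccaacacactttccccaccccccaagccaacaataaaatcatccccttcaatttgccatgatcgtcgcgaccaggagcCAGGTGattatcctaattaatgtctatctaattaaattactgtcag
Neurod2: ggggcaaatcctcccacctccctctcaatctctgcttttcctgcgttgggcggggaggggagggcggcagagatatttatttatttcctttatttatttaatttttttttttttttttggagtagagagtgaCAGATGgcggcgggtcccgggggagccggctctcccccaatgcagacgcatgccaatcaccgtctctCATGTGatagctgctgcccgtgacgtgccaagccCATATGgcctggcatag
Eomes: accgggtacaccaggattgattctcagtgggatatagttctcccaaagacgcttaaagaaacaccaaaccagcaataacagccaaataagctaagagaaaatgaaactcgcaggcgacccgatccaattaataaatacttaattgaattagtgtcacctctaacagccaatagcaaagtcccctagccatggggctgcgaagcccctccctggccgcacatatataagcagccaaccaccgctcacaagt

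*Tbr1* has 1 E-box in this window, *Neurod2* has 3 and *Eomes* has 0. *Bcl11b*, *Sox5*, *Fezf2* and *Cux1* also have 0. Their log2 differences between the HT library used for the choice and the mean of the other HT libraries were -0.69, -0.55, -0.44 and -0.13. The differences were -0.49 for *Tbr1*, -0.29 for *Neurod2* and -0.04 for *Eomes*. *Bcl11a*, with 1, had -0.22, and *Cux2*, with 1 and 2 in its pair of windows, had -0.58. A link between E-boxes and these differences was not tested. One of the *Neurod2* matches is CAGATG, the form preferred by neurogenic bHLH factors and a special case of CANNTG. All 9 genes matched a RefSeq window, and *Cux2* matched a pair, which gave 10 windows. As for *Tbr1*, those of *Sox5*, *Fezf2*, *Cux1*, *Bcl11a* and *Cux2* lie inside the longer GENCODE spans. The *Sox5* window, on the minus strand, ends at chr6:143947356, far from the 5′ end of its span at 144781977. CANNTG occurred in 5 of these 10 windows (*Tbr1*, *Bcl11a*, *Neurod2* and both of *Cux2*), against 66.2% of all 32851 windows of this length. CAGATG, on either strand, occurred in 2 of 10, against 14.4% of all windows. The T-box element GGTGTGA, on either strand, had 0 matches in the 10 windows and 3.33% in all. The SOX element AACAAT, on either strand, had 1 match, in *Tbr1* (left in lower case above), and 9.42% in all. The windows differed in base composition, with a GC content of 45.2% for *Tbr1*, 52.8% for *Neurod2* and 46.4% for *Eomes*, beside a median of 52.4% over all windows.

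The libraries summed to 27.24 to 29.03 M normalised read counts (M, 1000000), and log2 values of any pair of libraries correlated with a Pearson r of 0.973 to 0.986. By the study's methods, a normalised read count is the estimated number of reads of a gene divided by a size factor of the library. Whether transcript length also entered the scaling is not given. *Arid1b* averaged 2101 ± 343 for HT and 3335 ± 203 for WT (SD, n = 5 for both), 63.0% of the WT mean, with no overlap between the groups. In the limma fit its log2 fold change was -0.68 with an adjusted p of 0.390, and without HT 4 it was -0.57 with an adjusted p of 2.52e-04. The exact permutation test over every assignment of the libraries to 5 and 5 gave p = 0.00794, the smallest it can give. HT 4 stood apart from the other 9 libraries: its sample weight in limma was 0.171, where the others had 0.858 to 1.52. It was the lowest of the 10 libraries for 27.5% of all genes tested and the highest for 24.7%. The comparison of each factor is therefore given with and without it. The tissue label was checked against its markers: all 6 neuron markers were present at 2951 or more in every library, and the listed markers of thalamus (7 of 7) and cerebellum (9 of 10, *Gabra6* not analysed here) were also measured. Of the hindbrain and spinal cord genes, *Hoxb4* was listed at 0 in WT 2, *Hoxd4* in HT 2 and WT 2, and *Hoxb6* in HT 1, HT 2 and WT 2.

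For none of the 9 factors was a difference between the genotypes detected beyond the spread between mice. Of the 17020 genes tested with limma, 0 (0%) had an adjusted p under 0.05, and 0 of the 9 factors did. An unadjusted p under 0.05 was found for 3.41% of all genes and for 0 of the 9 factors. The groups did not overlap for 0.629% of all genes, and they overlapped for each of the 9. HT was lower than WT, by any amount, in 53.6% of all genes and in 7 of the 9 factors, the exceptions being *Cux1* and *Cux2*. Without HT 4 it was lower in 50.4% of all genes and in 3 of the 9 (*Fezf2*, *Neurod2* and *Eomes*). Adjusted p was 0.9997 for every factor in the limma fit of all 10 libraries, so that only sizes, intervals and unadjusted values are given for each gene below.

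**Figure D1:**
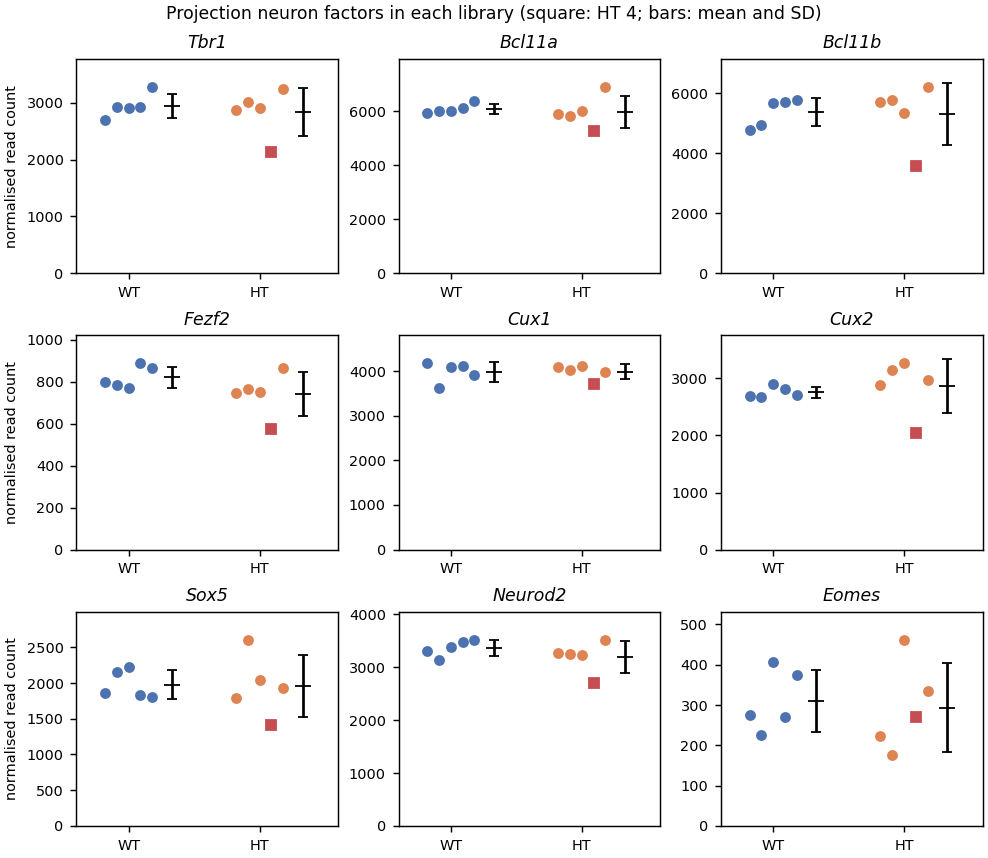
Normalised read count of each of the 9 factors in the 5 WT (blue) and 5 HT (orange) libraries, on axes that start at 0; the red square is HT 4, and black bars give the group mean and SD. WT and HT points overlap in every panel, and HT 4 is the lowest of 10 in 7 panels, with *Cux1* and *Eomes* as the exceptions.

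*Eomes* (ENSMUSG00000032446; chr9:118478212-118486132, plus strand, GRCm38 as for all positions below) is the T-box factor of intermediate progenitors. Its counts were 223, 177, 462, 271 and 334 in HT 1 to HT 5, and 276, 225, 407, 271 and 375 in WT 1 to WT 5. The high libraries were HT 3, WT 3, WT 5 and HT 5, from both genotypes, and the low ones were HT 2, HT 1 and WT 2. The HT mean was 293 ± 111 and the WT mean 311 ± 76.6 (SD, n = 5 each), with a log2 fold change of -0.13 ± 0.24 (SE). The 95% interval of -0.64 to 0.39 spans a change from -36.0% to 31.2%, the widest of the 9, and the exact permutation p was 0.627. Without HT 4 the log2 fold change was -0.12. Leaving out HT 2 turned the log2 fold change to 0.04, and leaving out HT 3 moved it to -0.31.

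The spread of *Eomes* was the largest of the 9. Its coefficient of variation among WT mice was 24.7%, and 97.9% of the 12826 genes with a mean of at least 100 had a lower one (median 6.61%). Among the other 8 factors it ran from 3.00% for *Bcl11a* to 10.1% for *Sox5*. *Tbx21*, a T-box gene of mitral and tufted cells in the olfactory bulb, was set beside *Eomes* after the values had been seen. It had 1.09, 2.72, 37.1, 4.92 and 26.6 counts in HT 1 to HT 5, and 9.47, 10.8, 38.1, 14.4 and 31.1 in WT 1 to WT 5. Both genes were high in HT 3, HT 5, WT 3 and WT 5. Over the 10 libraries the log2 values of *Eomes* and *Tbx21* had a Pearson r of 0.868 and a Spearman rho of 0.915, and r was 0.836 without HT 2 and HT 3, which lay farthest from the median. *Cdhr1*, a cadherin of the same cells, gave r = 0.838 and rho = 0.855 with *Eomes* (r = 0.775 without the same libraries). *Hoxb5*, a hindbrain and spinal cord gene, gave r = 0.821 and rho = 0.745 (r = 0.731 without them). *Tbr1*, which is expressed in mitral cells as well as in cortex, gave r = 0.168 and rho = 0.0909. With *Eomes*, r was 0.216 for *Insm1*, -0.124 for *Neurog2* and 0.178 for *Barhl1*, a cerebellar gene. The correlations are descriptions over 10 libraries of pairs picked from these data. Of the other listed bulb markers, named after their values were seen, *Lhx5* was highest in HT 4 (309) and WT 1 (266). *Doc2g* (266) and *Nmb* (80.7) were highest in WT 5, followed by HT 4 (217 and 76.0). The 5 listed bulb markers summed to 987 to 2175 in HT and 1104 to 1874 in WT, with none at 0, and the 8 hindbrain and spinal cord genes summed to 123 to 1434 in HT and 34.7 to 746 in WT. The part of either tissue in the *Eomes* values was not tested.

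**Figure D2:**
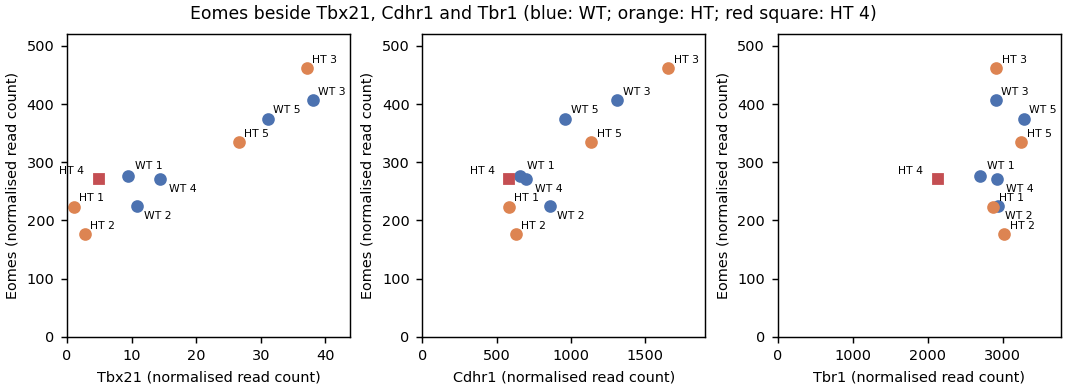
Normalised read count of *Eomes* (vertical) against that of *Tbx21*, *Cdhr1* and *Tbr1* (horizontal), 1 point per library; blue is WT, orange HT and the red square HT 4. HT 3, HT 5, WT 3 and WT 5 lie at the upper right for *Tbx21* and *Cdhr1*, whereas *Tbr1* shows no such order (r = 0.168).

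*Neurod2* (ENSMUSG00000038255; chr11:98325415-98329648, minus strand) is the bHLH factor of newly formed and maturing glutamatergic neurons. HT 1 to HT 5 had 3273, 3241, 3237, 2702 and 3505 counts, and WT 1 to WT 5 had 3312, 3143, 3387, 3467 and 3516. Apart from HT 4, the HT values fell inside the WT range. The means were 3192 ± 295 (SD, n = 5) and 3365 ± 147 (SD, n = 5), and the log2 fold change was -0.08 ± 0.07 (SE; 95% interval -0.22 to 0.06; exact permutation p = 0.294). Without HT 4 it was -0.02.

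In all, 4 of the factors act in deep layer neurons. *Tbr1* (ENSMUSG00000035033; chr2:61802930-61814114, plus strand), the corticothalamic T-box factor, had 2878, 3024, 2918, 2141 and 3250 counts in HT 1 to HT 5, and 2695, 2935, 2911, 2923 and 3281 in WT 1 to WT 5. HT 4 lay below every WT library, and the other HT libraries lay within the WT range. The HT mean was 2842 ± 418 and the WT mean 2949 ± 210 (SD, n = 5 each), and the log2 fold change was -0.06 ± 0.10 (SE; 95% interval -0.27 to 0.14; exact permutation p = 0.690). Without HT 4 the sign turned, to 0.03.

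*Fezf2* (ENSMUSG00000021743; chr14:12342094-12348189, minus strand), a zinc finger factor that specifies subcerebral neurons, had the smallest unadjusted p of the 9. Its counts were 744, 766, 750, 575 and 866 in HT 1 to HT 5, and 797, 782, 771, 886 and 863 in WT 1 to WT 5. In all, 4 HT libraries were below the lowest WT library (771), but HT 5 was near the highest, so the groups overlapped. The means were 740 ± 105 (SD, n = 5) and 820.1 ± 51.4 (SD, n = 5). The log2 fold change was -0.16 ± 0.09 (SE), the 95% interval -0.36 to 0.05 (a change of -22.1% to 3.23%), the unadjusted limma p 0.118 and the exact permutation p 0.135. Without HT 4 these values became -0.07 on the log2 scale and an unadjusted p of 0.303. *Fezf2* and *Neurod2* were the members whose log2 fold change stayed negative in each of the 23 alternative settings, from -0.22 to -0.04 and from -0.12 to -0.0003.

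*Bcl11b* (ENSMUSG00000048251; chr12:107910403-108003602, minus strand) acts downstream of *Fezf2* in subcerebral neurons and also in the striatum. HT 1 to HT 5 had 5713, 5764, 5321, 3562 and 6203 counts, and WT 1 to WT 5 had 4773, 4944, 5671, 5689 and 5783. Here HT 4 was at 61.9% of the mean of the other HT libraries, the lowest such share of the 9 factors. The means were 5313 ± 1027 (SD, n = 5) and 5372 ± 474 (SD, n = 5), with a log2 fold change of -0.04 ± 0.13 (SE; 95% interval -0.32 to 0.24; exact permutation p = 0.905). Without HT 4 it became 0.10, with an unadjusted p of 0.134.

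*Sox5* (ENSMUSG00000041540; chr6:143828425-144781977, minus strand), an HMG box factor, had 1786, 2605, 2044, 1415 and 1929 counts in HT 1 to HT 5, and 1866, 2159, 2224, 1827 and 1807 in WT 1 to WT 5. HT 2 was the highest of the 10 libraries and HT 4 the lowest. The means were 1956 ± 433 (SD, n = 5) and 1977 ± 199 (SD, n = 5), and the log2 fold change was -0.04 ± 0.13 (SE; 95% interval -0.32 to 0.25; exact permutation p = 0.802). Without HT 4 it was 0.07. Of the 31-base words of *Sox5* transcripts, 9.37% occur in another gene, most of them in the antisense transcript *Sox5os1*, which is not analysed here; for the other 8 factors this share was at most 2.62%.

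Of the upper layer factors, *Cux1* had nearly equal means in both genotypes and *Cux2* depended on HT 4. *Cux1* (ENSMUSG00000029705; chr5:136248135-136567490, minus strand), a homeobox factor, had 4099, 4021, 4108, 3701 and 3978 counts in HT 1 to HT 5, and 4171, 3616, 4100, 4109 and 3913 in WT 1 to WT 5. The means were 3981 ± 166 (SD, n = 5) and 3982 ± 226 (SD, n = 5). The genotypes lay within 8.19% of each other in either direction by the 95% interval (log2 fold change 0.0008, interval -0.11 to 0.11), and the exact permutation p was 0.976. Without HT 4 the log2 fold change was 0.03. The counts do not separate CASP from the homeobox transcripts.

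*Cux2* (ENSMUSG00000042589; chr5:121856366-122050102, minus strand), its paralog, had 2887, 3144, 3263, 2050 and 2972 counts in HT 1 to HT 5, and 2693, 2669, 2898, 2820 and 2703 in WT 1 to WT 5. In all, 3 HT libraries lay above every WT library, HT 1 lay just below WT 3, and HT 4 lay far below all of them. With all 10 libraries the means were 2863 ± 477 (SD, n = 5) and 2756 ± 98.2 (SD, n = 5), with a log2 fold change of 0.04 ± 0.10 (SE; 95% interval -0.19 to 0.26; exact permutation p = 0.849). Without HT 4 the HT mean was 3067 ± 169 (SD, n = 4) and the log2 fold change 0.15 ± 0.05 (SE; 95% interval 0.06 to 0.25). The unadjusted limma p was then 0.00444 and the adjusted p 0.446, above the threshold. An unadjusted p under 0.05 was reached without HT 4 by 8.4% of all genes and by 1 of the 9 factors, *Cux2*. An adjusted p under 0.05 was reached by 0.0118% of all genes (2 genes) and by 0 of the 9. The groups did not overlap without HT 4 for 2.96% of all genes and for 0 of the 9. Leaving out HT 2 or HT 3 instead turned the *Cux2* log2 fold change to -0.001 and -0.01.

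*Bcl11a* (ENSMUSG00000000861; chr11:24078056-24174123, plus strand), a zinc finger factor of several cortical layers, had 5898, 5809, 5995, 5285 and 6902 counts in HT 1 to HT 5, and 5923, 5997, 6017, 6126 and 6391 in WT 1 to WT 5. It was the steadiest of the 9 among WT mice, while HT 5 was above and HT 1, HT 2 and HT 4 were below the WT range. The means were 5978 ± 585 (SD, n = 5) and 6091 ± 183 (SD, n = 5), with a log2 fold change of -0.03 ± 0.06 (SE; 95% interval -0.17 to 0.10; exact permutation p = 0.635). Without HT 4 it was 0.01.

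**Figure D3:**
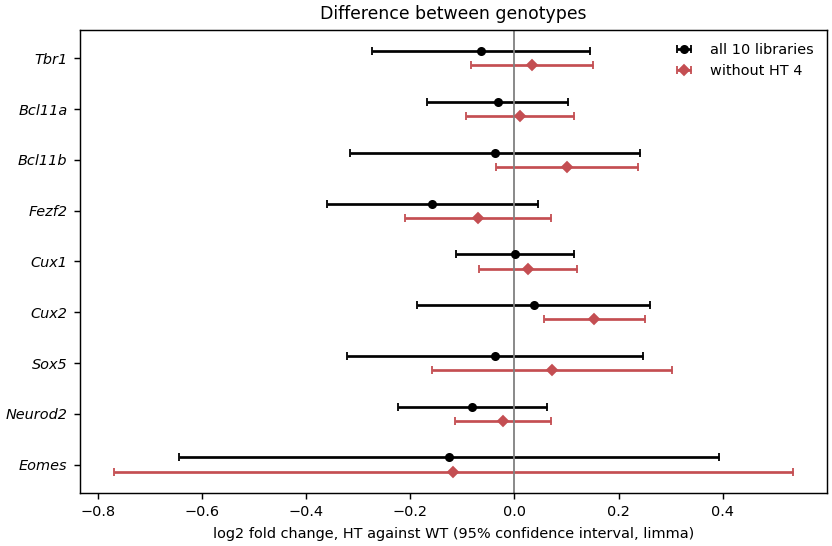
Log2 fold change of each factor, HT against WT, with its 95% confidence interval from limma, for all 10 libraries (black circles) and without HT 4 (red diamonds). Each black interval includes 0, and without HT 4 the interval of *Cux2* (0.06 to 0.25) lies above 0.

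Levels between genes were compared in WT as normalised counts per kilobase of transcript. With the median length of the coding transcripts of each gene, *Bcl11a* was highest at 2260 ± 67.8 (SD, n = 5) and *Bcl11b* next at 1860 ± 164. *Tbr1* at 1096 ± 78.2 and *Neurod2* at 1071 ± 46.7 overlapped, and so did *Cux1* at 816 ± 46.3 and *Sox5* at 783 ± 78.7. *Cux2* followed at 587 ± 20.9, *Fezf2* at 375 ± 23.5 and *Eomes* at 108 ± 26.7. The order depended on the length used. With the longest transcript, *Neurod2* (1071) and *Bcl11a* (1017) came first and overlapped, *Tbr1* (742) and *Bcl11b* (662) overlapped, and *Fezf2*, *Cux2*, *Cux1* and *Sox5* lay between 273 and 338, each overlapping its neighbour. *Eomes* was the lowest under both lengths, with 87.2 ± 21.5 under the second.

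Most of the 9 factors were low in HT 4, with *Eomes* least so. On the log2 scale, their mean deviation from the gene means over the 10 libraries was -0.33 in HT 4, and from -0.06 in WT 2 to 0.13 in HT 5 in the other libraries. In HT 4, 9 of the 9 were below their mean, against 1 (HT 5) to 6 (WT 1 and WT 2) in the others. HT 4 was the lowest library for 7 of the 9, where it was the lowest for 27.5% of all genes, and it was the highest for 0 of the 9, against 24.7%. The log2 difference between HT 4 and the mean of the other HT libraries was -0.69 for *Bcl11b*, -0.58 for *Cux2*, -0.55 for *Sox5*, -0.49 for *Tbr1* and -0.44 for *Fezf2*. It was -0.29 for *Neurod2*, -0.22 for *Bcl11a*, -0.13 for *Cux1* and -0.04 for *Eomes*. *Eomes* and *Cux1* thus moved least, whereas the deep layer factors and *Cux2* moved most.

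Several measures moved with the low values in HT 4. In this library long transcripts were lowered relative to short ones. A smooth trend on median transcript length and GC content gave differences of -0.17 (*Cux1*) to 0.11 (*Fezf2*), which for *Cux1*, *Bcl11a* (-0.07) and *Eomes* (0.04) were not small beside those observed. With the longest transcript in its place, a choice made after seeing the data, the trend gave -0.25 for *Bcl11a*, -0.32 for *Bcl11b*, -0.33 for *Cux2*, -0.34 for *Sox5* and -0.55 for *Cux1*. It gave 0.006 for *Tbr1*, 0.12 for *Neurod2*, 0.19 for *Fezf2* and 0.06 for *Eomes*. What remained after this trend was -0.63 for *Fezf2*, -0.50 for *Tbr1*, -0.41 for *Neurod2*, -0.37 for *Bcl11b*, -0.25 for *Cux2*, -0.21 for *Sox5*, -0.10 for *Eomes*, 0.03 for *Bcl11a* and 0.42 for *Cux1*, so the sign turned for *Bcl11a* and *Cux1*. Markers of other regions also differed. Of the 9 cerebellar genes measured, 8 were highest of the 10 libraries in HT 4, and the list summed to 11255 there, beside 6523 to 9356 in the other HT and 8128 to 10162 in the WT libraries, with none at 0. Neural progenitor markers summed to 41009 in HT 4, against 29791 to 32302 in the other HT and 31602 to 35371 in the WT libraries, and HT 4 was the highest library for 4 of the 7 and the lowest for 0. The 10 forebrain GABAergic genes summed to 15727 in HT 4, the lowest of all, against 15916 to 18174 elsewhere, and HT 4 was the lowest for 6 of them and the highest for 1. The 10 striatal genes summed to 9664 in HT 4, against 10497 to 11922 elsewhere, but this sum turned on *Pde10a* (2738 in HT 4 and 4044 to 4930 elsewhere, named after its values were seen). HT 4 was the lowest for 2 of the striatal genes and the highest for 3, and their median log2 difference from the other HT libraries was 0.04. The 7 thalamic markers summed to 13045 to 14109 in HT and 12297 to 12958 in WT, and HT 4 was the highest for 4 and the lowest for 1. Of these 7, 2 were lower in HT and 5 higher, with an adjusted p under 0.05 for 0. An unadjusted p under 0.05 by limma was found for 2 that were higher and 1 that was lower in HT, where 3.41% of all genes had one. The thalamic sums did not overlap between the genotypes. Of the 7 genes, only *Slc17a6*, named after its values were seen, had groups that did not overlap by itself, against 0.629% of all genes. Its counts were 4543 to 5025 in HT and 4143 to 4333 in WT. The part of transcript length or of the regions sampled in the low factor levels of HT 4 was not tested.

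**Figure D4:**
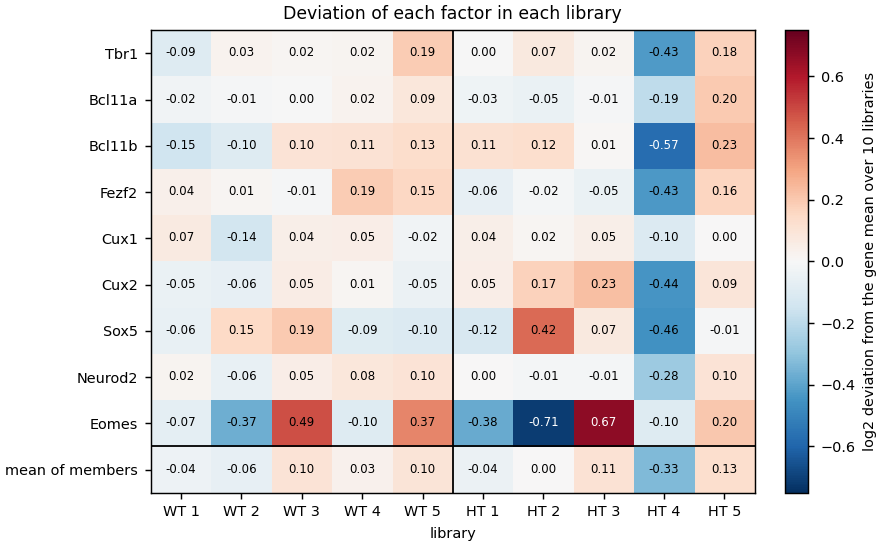
Log2 deviation of each factor from its mean over the 10 libraries, with the mean of the 9 in the bottom row; red is higher and blue lower than the gene mean, and the black line parts WT from HT. The HT 4 column is blue throughout, with a mean of -0.33, and the *Eomes* row is the most variable.

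Differences between pairs of factors within a library cancel what both share, and they are given as descriptions without a test. *Cux2* minus *Fezf2*, an upper layer against a subcerebral factor, was 1.95, 2.04, 2.12, 1.83 and 1.78 on the log2 scale in HT 1 to HT 5, and 1.75, 1.77, 1.91, 1.67 and 1.65 in WT 1 to WT 5. The means were 1.94 ± 0.14 (SD, n = 5) and 1.75 ± 0.10 (SD, n = 5), and the groups overlapped. In this pair HT 4 lay among the other libraries. *Bcl11a* minus *Bcl11b* averaged 0.19 in both genotypes (SD 0.22 in HT and 0.10 in WT, n = 5), but was 0.57 in HT 4 against 0.01 to 0.31 in the other 9 libraries. *Cux1* minus *Cux2* averaged 0.49 ± 0.21 for HT and 0.53 ± 0.07 for WT (SD, n = 5 for both), with 0.85 in HT 4 and 0.33 to 0.63 elsewhere. The paralogs of each of these families were thus lowered unequally in HT 4. *Neurod2* minus *Tbr1* was 0.18 ± 0.10 in HT and 0.19 ± 0.09 in WT, and *Eomes* minus *Tbr1* was -3.34 ± 0.57 and -3.27 ± 0.32 (SD, n = 5 each).

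**Figure D5:**
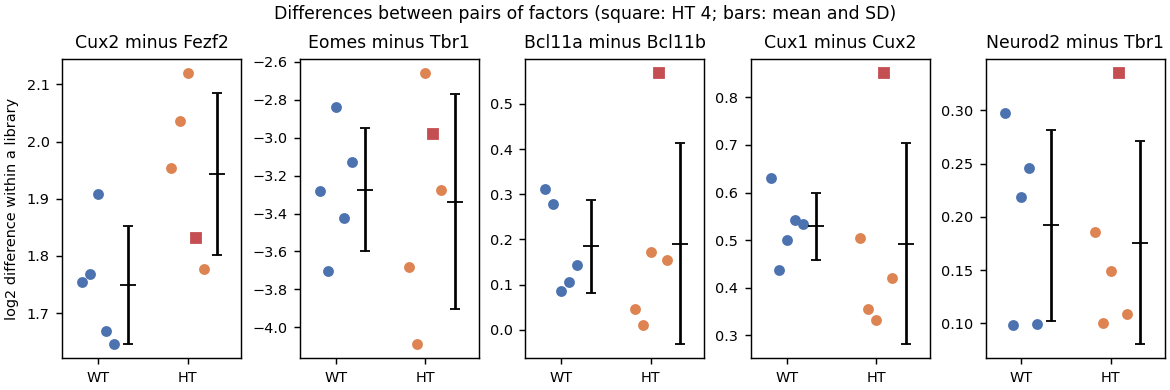
Log2 difference between the normalised counts of 2 factors within each library, for 5 pairs, each on its own vertical scale; blue is WT, orange HT, the red square HT 4, and black bars the mean and SD. HT 4 is the highest point for *Bcl11a* minus *Bcl11b*, *Cux1* minus *Cux2* and *Neurod2* minus *Tbr1*, and lies among the others for *Cux2* minus *Fezf2* and *Eomes* minus *Tbr1*.

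Other genes of the same programme were examined in 4 lists, and 0 genes of any list had an adjusted p under 0.05 in the limma fit. Of 12 further upper layer genes, 10 had a negative log2 fold change. The median of the 12 was -0.04 (0.03 without HT 4), and HT 4 was the lowest library for 10 of the 12. The smallest p values belonged to *Mdga1*, a cell adhesion gene, with 3749 ± 256 in HT and 3992 ± 176 in WT (unadjusted p = 0.122 by limma), *Kitl*, the ligand of the KIT receptor, and *Pou3f2*, a POU factor of upper layer neurons. *Kitl* had 3580 ± 287 and 3808 ± 151, and *Pou3f2* 1749 ± 250 and 1881 ± 98.6 (SD, n = 5 each). Over all genes tested the median was -0.007, and -0.0008 without HT 4.

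Of 14 further deep layer and subplate genes, 7 were lower in HT, with a median of 0.0002 (0.05 without HT 4), and HT 4 was the lowest library for 10 and the highest for 2. *Pcp4*, a calmodulin regulator of subcerebral and also of cerebellar neurons, was the 1 gene with an unadjusted p under 0.05 over all 10 libraries. It averaged 2317 ± 394 for HT and 1993 ± 92.6 for WT (SD, n = 5 for both), a log2 fold change of 0.20 with an unadjusted p of 0.0455 by limma. HT 4 had 2996, the highest count of *Pcp4*, and without it this value was 0.11 with an unadjusted p of 0.0512. Without HT 4, 2 other genes of the list were under 0.05, where 8.4% of all genes were: *Lmo3*, a LIM-only factor (0.15, unadjusted p = 0.00333 and adjusted p = 0.446 by limma), and *Crim1*, a gene of corticospinal neurons (0.13, unadjusted p = 0.0206 and adjusted p = 0.520 by limma), both named after their values were seen. *Crym*, a thyroid hormone binding protein, had 1519 ± 133 and 1688 ± 139, and *Nr4a2*, a nuclear receptor of the subplate, 1418 ± 278 and 1592 ± 162 (SD, n = 5 each).

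Of 12 genes of glutamatergic bHLH differentiation and intermediate progenitors, 11 were tested and *Neurog1* is not analysed here. HT was lower for 8 of the 11, with a median of -0.09 (-0.12 without HT 4). HT 4 was the lowest library for 1 of these genes and the highest for 3, unlike the layer genes. *Insm1*, a zinc finger factor that promotes the formation of basal progenitors, had 545 ± 130 in HT and 616 ± 85.4 in WT. Its log2 fold change moved from -0.20 to -0.32 without HT 4 (unadjusted p = 0.0152 and adjusted p = 0.483 by limma). It was the 1 gene of the 11 with an unadjusted p under 0.05 in that fit, where 8.4% of all genes were. *Neurod4*, a bHLH factor, had 20.3 ± 6.4 and 27.3 ± 9.2, and *Ezr*, which encodes ezrin, 1093 ± 95.7 and 1160 ± 54.4 (SD, n = 5 each). *Insm1* is also expressed by cerebellar granule cell precursors, and for the 9 cerebellar genes the median difference was -0.17 on the log2 scale, with 7 lower in HT (-0.29 and 9 without HT 4). The 7 neural progenitor markers had a median of -0.08, with 5 lower in HT (-0.11 and 7 without HT 4). The part of either cell type in the *Insm1* values was not tested.

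Of 12 dorsal telencephalon patterning genes, 7 were lower in HT, with a median of -0.05 (-0.007 without HT 4), and HT 4 was the lowest for 2 and the highest for 2. Without HT 4, 1 gene of the list had an unadjusted p under 0.05, where 8.4% of all genes did. It was *Mef2c* (log2 fold change 0.12, unadjusted p = 0.0114 and adjusted p = 0.470 by limma), named after its values were seen. *Pax6*, the paired box factor of radial glia and cerebellar granule cells, had 678 ± 140 in HT and 772 ± 113 in WT, and *Emx1*, a homeobox factor of the dorsal telencephalon, 258 ± 36.9 and 279 ± 27.8 (SD, n = 5 each).

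The genes whose deviations over the 10 libraries were most like the mean of the 9 factors were sought among 12817 genes with a mean of at least 100. These were *Bcl7a*, a BAF complex subunit (Pearson r = 0.974, Spearman rho = 0.879), *Ambra1*, an autophagy regulator (0.964 and 0.818), *Meis2*, a homeobox factor (0.948 and 0.927), *Adgrb3*, an adhesion receptor (0.945 and 0.745), and *Arhgap33*, a GTPase regulator (0.939 and 0.830). HT 4 was the lowest library for each of the 5. Without HT 4, r was 0.909, 0.867, 0.918, 0.789 and 0.775 in the same order, and without HT 4 and HT 5 it was 0.885, 0.843, 0.904, 0.896 and 0.715. *Bcl7a* had 3168 counts in HT 4 and 3634 to 3984 in the other 9 libraries. Its mean was 3706 ± 316 for HT and 3812 ± 113 for WT (SD, n = 5 for both). These values rank likeness over 10 libraries that include the ones used to choose the genes, and no test was made.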

How the data were processed

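RNA of 10 whole brains (5 HT and 5 WT males, 1 library each) was grouped by the sample titles. Libraries were made with a stranded poly-A kit and sequenced as paired ends. The authors quantified reads with Salmon 1.1.0 against GRCm38, imported gene-level estimates with tximport and divided them by DESeq2 1.30.1 size factors, per the labels and the study's methods. The deposited values are thus a signal (normalised read counts, not whole numbers). Of small values (below 30), 6.28% to 21.04% per library lay within 0.02 of a whole multiple of a best step, so whole reads were not recovered and no count test was run. Precision was taken from the spread between mice, at totals of 27.24 to 29.03 M normalised counts per library.

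Here log2(value + 1) was analysed in R 4.3.3 with limma 3.58.1 (trend, robust empirical Bayes, two-sided, no covariate). Fold changes are on this scale, which understates changes of low genes. Genes with a mean of at least 10 were tested (17020; 1424 left out), with Benjamini-Hochberg adjustment over all of them and a threshold of 0.05. Single genes were also tested by exact permutation over every assignment of 10 libraries to 5 and 5, two-sided. The workflow was tested on simulated data. Symbols, lengths and positions came from GENCODE M21 (18431 of 18444 identifiers matched), and upstream sequences from RefSeq. Nothing says that pups came from separate litters, so p values measure the spread between these mice.

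The members and lists were chosen with earlier results of these data known, and their counts are descriptions. The text names the 9 factors, *Arid1b*, the 3 genes of smallest p in each of 4 lists, the 5 genes most like the mean of the 9, and marker genes at 0; others are said to be chosen after their values were seen. Among them, 1 gene picked by these criteria is not reported here. Of T cell markers, *Cd4* and *Lck* were measured and summed to 140 to 259; the other 4 and all 5 natural killer cell markers are not analysed here. Alternatives were other pseudocounts (0.5 and 10), filters (none and 100), scalings, a trend on length and GC content removed, sample weights, variance moderation that is not robust, a replicate block and each library left out.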

Additional observations from a re-analysis of the deposited data

Results flagged for a closer look

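For 34 results, the most extreme library of each genotype was compared with the other 4 by the ratio of its gap to the range of the group and Dixon's 95% limit for 5 values. Of 68 groups, 4 passed, where about 1 in 20 (3.4) would pass by chance, and none was one of the 9 factors by itself. In HT, HT 4 was the extreme value of 3 of them: it was lowest for *Arid1b* (ratio 0.735; 1505 counts against 2142 to 2372 in the other HT libraries), lowest for *Arhgap33* (ratio 0.800) and highest for log2 *Bcl11a* minus *Bcl11b* (ratio 0.712; 0.57 against 0.01 to 0.17). In WT, WT 4 was highest for *Ezr* (ratio 0.738; 1254 counts against 1127 to 1160). *Arhgap33* had been picked for likeness to the mean of the 9 factors, itself lowest in HT 4, so its flag was not an independent check. The 34 results are also not independent of each other, so the 3.4 is a rough guide.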

How the results depend on the processing

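Over 23 alternatives, 0 of the 9 factors and 0 genes of the wider lists had an adjusted p under 0.05. Among all genes, limma called 1 with the length and GC trend removed, 2 with sample weights and 0 to 2 with 1 library left out (2 without HT 4). Settings chosen after seeing the data called 2 (that trend, without HT 4), 1 (trend on the longest transcript) and 2 (the same, without HT 4). *Arid1b* passed the threshold in these fits, at -0.66, -0.60, -0.62, -0.65 and -0.64 on the log2 scale. On leaving out 1 library it ranged from -0.73 to -0.57 and passed without HT 4 (-0.57), but in none of the other 9 such fits (adjusted p 0.420 to 0.9999). Genes with an unadjusted p under 0.05 numbered 399 to 1429.

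The log2 fold change changed sign for 7 of the 9. Sample weights gave 0.036 for *Tbr1*, 0.0063 for *Bcl11a*, 0.084 for *Bcl11b* and 0.081 for *Sox5*. Scaling to library totals gave -0.0058 for *Cux1*. Leaving out 1 library gave -0.12 to 0.034 for *Tbr1*, -0.085 to 0.011 for *Bcl11a*, -0.099 to 0.10 for *Bcl11b*, -0.034 to 0.027 for *Cux1*, -0.015 to 0.15 for *Cux2*, -0.15 to 0.072 for *Sox5* and -0.31 to 0.036 for *Eomes*. With HT 4 left out and the trend on median length removed, *Tbr1* was 0.042, *Bcl11a* 0.0050, *Bcl11b* 0.11 and *Sox5* 0.067. With the longest transcript the values were 0.042 for *Tbr1*, 0.061 for *Bcl11b*, 0.032 for *Sox5* and -0.056 for *Cux1*. For *Tbr1*, *Bcl11a* and *Bcl11b* the sign turned only in settings that left out HT 4 or used sample weights. The cause was not tested. *Fezf2* and *Neurod2* kept their sign in every setting, and no setting moved the median of all genes by over 0.1.

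Deviations of same-numbered HT and WT libraries correlated with r = 0.091, 0.084, 0.082, -0.10 and 0.093. The labels give these libraries only a number in common, and what a shared number stands for is not given and was not tested. HT libraries correlated best with their own number for 1, 2, 3 and 5, but not for 4. With a replicate block 0 genes were called and 558 had an unadjusted p under 0.05 by limma. The *Eomes* log2 fold change was then -0.13 ± 0.10 (SE), where the SE was 0.24 without the block. The block changed no call. The precision rests on 5 mice per group, and a difference of the size of the intervals given for each factor cannot be told from none.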
